A study of Mus musculus with 2 samples.

Results

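The matrix metalloproteinases (MMPs), the ADAM and ADAMTS proteases and the tissue inhibitors of metalloproteinases (TIMPs) were followed in the mouse air pouch membrane after injection of monosodium urate (MSU) crystals, the crystals that form in gout. Members were the genes whose symbol is Mmp, Adam or Adamts followed by a digit, or Timp1 to Timp4, read only from probe sets assigned to 1 gene. This gave 65 genes with 116 probe sets, of 18193 genes with 34945 such probe sets: 18 MMP genes, 28 ADAM genes, 15 ADAMTS genes and 4 TIMP genes. The pouch is made by injecting sterile air beneath the skin of the back, and its wall comes to resemble a joint lining. All mice were female Balb/C of 6 to 8 weeks with pouches raised with 2 ml of air, and the labels name no transgene or deletion. On day 7 the control mice received 1 ml PBS and the MSU mice received 2 mg of MSU crystals in the same volume, and membranes were dissected 9 h later (the study's methods give other air volumes and another day of injection than the labels). RNA from 3 control pouches was pooled for 1 array and RNA from 3 MSU pouches for the other, so there were no replicates. Every value therefore describes these 2 pools, with no standard deviation and no test, and a difference between them was not compared with the spread between mice or arrays.

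MMPs are zinc-dependent enzymes, secreted or held at the cell surface, that are made as inactive precursors and cleave collagens, proteoglycans and many signalling proteins. ADAM proteases are membrane proteins, several of which release the outer part of other membrane proteins such as TNF and its receptors, while ADAMTS proteases are secreted and include the enzymes that cleave aggrecan and versican. TIMPs are small secreted proteins that bind the active sites of these enzymes. MMP8 and MMP9 are known as stored granule proteins of neutrophils, MMP12 as an enzyme of macrophages, and MMP3 and MMP13 as enzymes of activated fibroblasts and chondrocytes.

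The signal of a probe set is a linear brightness summarised over its probes. A brightness cut, called the floor here, was set at the rank of the number of probe sets that the study counted as detected. It was 64.6 for the control array and 74.1 for the MSU array. The floor is not a detection call for a single probe set, so a signal below it may still be real and one above it may not be. A fold is given where both signals lay above their floors. Where only 1 did, the fold is given as a bound, that signal over the other array's floor, and the gene counts as measured in both cases. Signals of different genes are not compared as RNA levels, because probe sets differ in brightness for the same amount of RNA. The RNA came from whole membrane, so fewer cells of a type and less RNA per cell cannot be told apart. The 18 spike-in control probe sets all had a brighter MSU signal, with a median ratio of 1.37, and scaling on them lowers every log2 ratio by 0.46.

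Of the 65 member genes, 38 were measured, 34 with a fold and 4 with a bound, 26 lay below the floor in both pools, and Adam1a, at 72.2 in control and 69.9 in MSU, allowed no bound. Those higher in the MSU pool by 2-fold or more were 7 genes, Mmp8, Mmp9, Mmp19, Mmp12, Mmp3, Adam8 and Adamts4. Only Timp4 was lower by 2-fold or more. These are 18.4% and 2.63% of the measured members, beside 3.70% higher and 4.29% lower among all 11155 measured genes. The median log2 ratio was 0.29 over the 34 members with a fold, of which 22 were above 1-fold and 12 below, and -0.05 over all genes. With scaling on the spike-ins, 3 members were higher (Mmp8, Mmp9 and Adam8) and 3 lower (Timp4, Mmp23 and Adam22), beside 1.77% and 15.8% of all genes. By probe set, 67 of the 116 were measured, with 11 (16.4%) higher and 3 (4.48%) lower by 2-fold or more, beside 3.97% and 3.59% of the 18708 measured probe sets of all genes.

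The families differed in how many genes were measured and in where their ratios lay. Among the MMPs 12 of 18 were measured, 5 were higher and none lower by 2-fold or more, and the median log2 ratio of 11 folds was 0.99, within a range from -0.56 to 2.98. Among the ADAMs 12 of 28 were measured, only Adam8 was higher by 2-fold or more, and the median was -0.04, from -0.82 to 2.38. Among the ADAMTS genes 10 of 15 were measured, only Adamts4 was higher by 2-fold or more, and the median was 0.15, from -0.29 to 1.22. All 4 TIMP genes were measured, none was higher by 2-fold or more, and the 3 with a fold had a median of 0.42. The MMP median thus lay above those of the other families. The size of this gap depended on how faint signals were treated, and with the floor added to every signal as a pseudocount, faint genes included, the medians were 0.27 for MMP, 0.15 for ADAM, 0.03 for ADAMTS and 0.13 for TIMP genes.

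**Figure D1:**
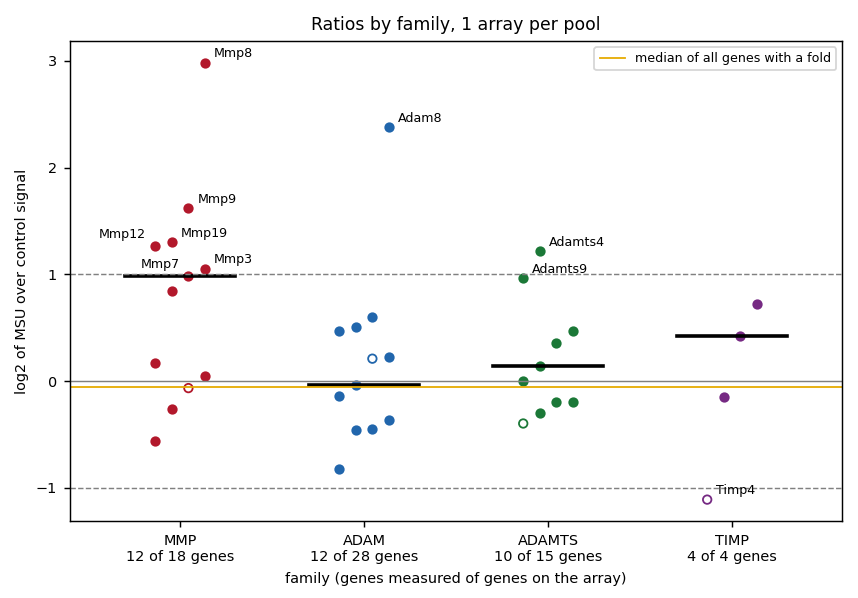
Log2 of MSU over control signal (vertical axis) for each measured gene of the 4 families (horizontal axis, with the number measured), with filled points for folds, open points for bounds, black bars for the median of the folds, a yellow line for the median of all genes and dashed lines at 2-fold. The plot has 5 MMP genes above the upper dashed line, and Adam8 and Adamts4 are the only points above it in their families.

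Among the collagenases, which cut fibrillar collagen, Mmp8 had the largest ratio of all members. The signal of Mmp8, the neutrophil collagenase, was 75.8 in control and 599 in MSU, 7.91-fold higher (log2 ratio 2.98). The control signal lay just above the floor, so the size of this fold rests on a faint value. Mmp13, which also cleaves cartilage collagen, had signals of 335 and 603, 1.80-fold higher. Mmp1a and Mmp1b, the mouse relatives of interstitial collagenase, lay below the floor in both pools.

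The gelatinases, which cleave denatured collagen and basement membrane collagen, had unlike ratios. Mmp9 was 257 in control and 789 in MSU, 3.07-fold higher, and its second probe set gave 246 and 807, 3.28-fold higher. Mmp2, the gelatinase of fibroblasts, was 4784 and 4955, a ratio of 1.04, and its second probe set gave 4215 and 4214. The ratios of Mmp9 and Mmp2 differed by 2.97-fold, a quantity that no scale factor of an array can change. The direction of Mmp2 is not settled, as its log2 ratio was -0.02 with scaling on the array medians and -0.41 with scaling on the spike-ins.

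Among the stromelysins, of broad substrate range, Mmp3 had signals of 1922 in control and 3983 in MSU, 2.07-fold higher and just past the 2-fold limit. Mmp10, the near relative of Mmp3, stayed below the floor at 34.5 and 54.4, and Mmp11 was 77.5 in control and below the floor at 57.9 in MSU, at least 1.05-fold lower. Mmp12, the macrophage metalloelastase, was 164 and 395, 2.41-fold higher. Mmp7, or matrilysin, an enzyme made mainly by epithelia that activates other proteins by cleavage, was 71.5 and 142, 1.98-fold higher and just short of the limit, again from a faint control signal. Mmp19, found in fibroblasts and myeloid cells, was 526 and 1294, 2.46-fold higher, and its second probe set gave 352 and 842. Mmp3, Mmp12, Mmp7 and Mmp19 thus lay near or above 2-fold.

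The membrane-bound MMPs did not share this. Mmp14, the collagenase of the cell surface that also activates pro-MMP2, was 2844 in control and 2377 in MSU, 1.20-fold lower, and its other probe sets gave 1176 and 917, and 475 and 322. Mmp24 was 68.0 and 76.6, close to the floor on both arrays, and its ratio of 1.13 turned below 1 with scaling on the spike-ins. Mmp16 and Mmp17 lay below the floor in both pools, as did Mmp20, the enamel protease. Mmp23, a membrane MMP with an unusual cysteine-rich domain, was 531 and 359, 1.48-fold lower, and its second probe set was 409 and 186, 2.20-fold lower. The ratios of Mmp3 and Mmp14 differed by 2.48-fold.

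**Figure D2:**
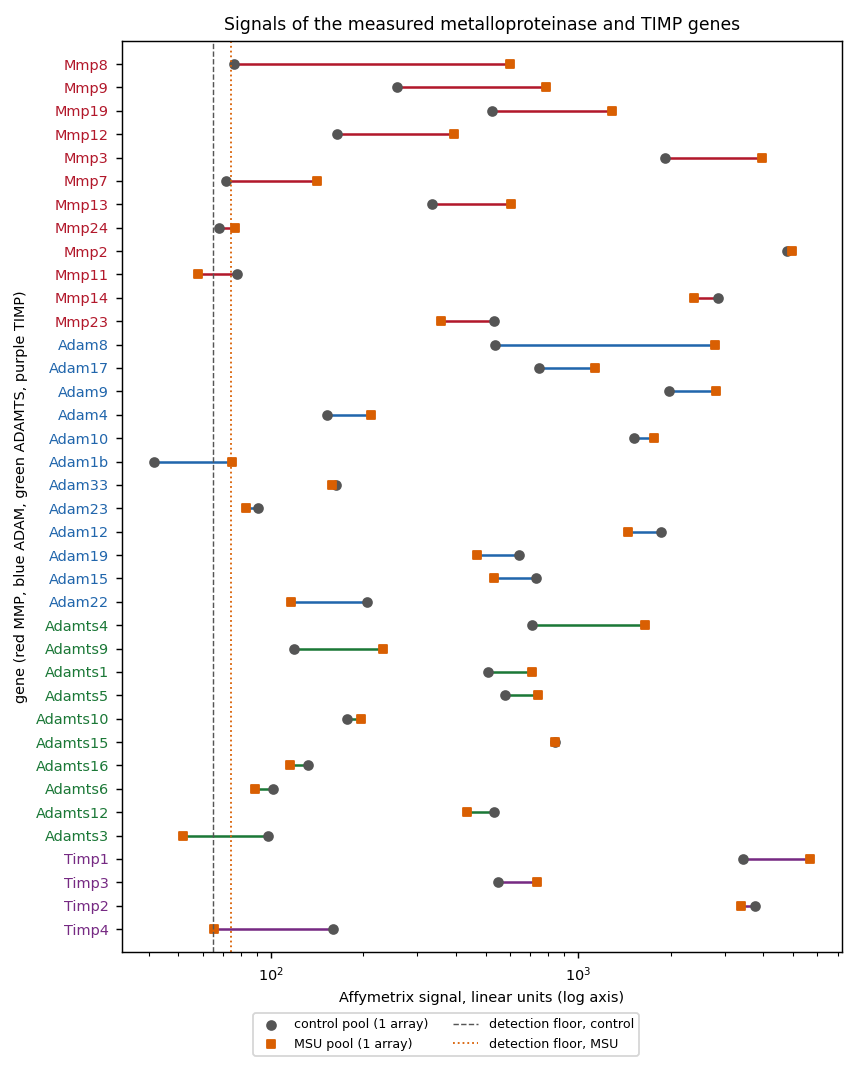
Affymetrix signal (horizontal log axis, linear units) of the 38 measured genes (vertical axis, coloured by family) in the control pool (grey circles) and the MSU pool (orange squares), 1 array each, with vertical lines at the floors of 64.6 and 74.1. The widest gaps to the right are those of Mmp8 and Adam8, and Timp4 and Adamts3 are among the few that drop below the MSU floor.

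Most of the MMP genes with high ratios are neighbours. In the RefSeq annotation of the mouse assembly GRCm38.p6, 10 MMP genes follow each other on chromosome 9 in the order Mmp13, Mmp12, Mmp1b, Mmp3, Mmp1a, Mmp10, Mmp8, Mmp27, Mmp20 and Mmp7. A named probe set was at hand for 9 of them, all but Mmp27. Of these, 5 were measured, all with a fold above 1 and 3 of them past 2-fold, and their median log2 ratio was 1.05. The 4 others, Mmp1b, Mmp1a, Mmp10 and Mmp20, lay below the floor in both pools and sit between the measured ones. Of the 9 MMP genes elsewhere in the genome 7 were measured and 2, Mmp9 and Mmp19, were past 2-fold, and the median over 6 folds was 0.11. Genes below the floor give no ratio, so the medians cover the measured genes alone.

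**Figure D3:**
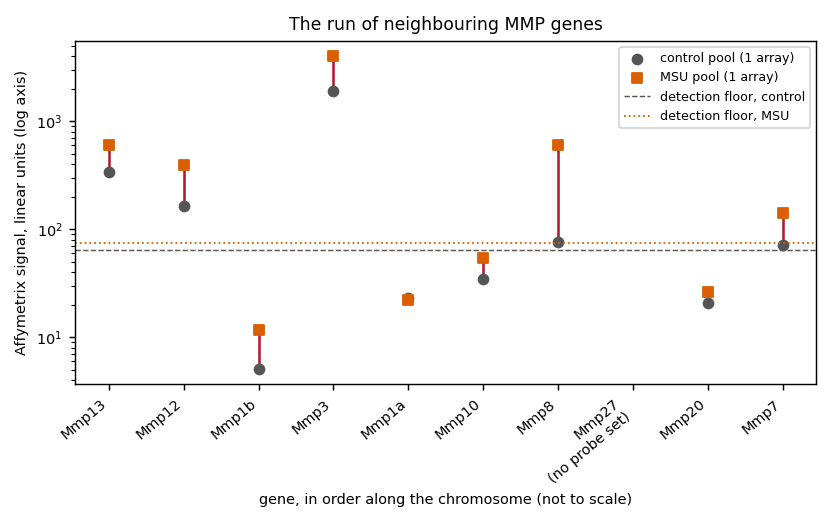
Signals (vertical log axis, linear units) of the neighbouring MMP genes on chromosome 9 (horizontal axis, in genome order, not to scale) in the control pool and the MSU pool, with the floors as lines. Mmp13, Mmp12, Mmp3, Mmp8 and Mmp7 lie higher in the MSU pool, and the genes between them lie below both floors.

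Promoters of several MMP genes, though not of all, are known for a binding motif of AP-1 (the Fos and Jun factors) close to the start site, beside a TATA box. The letters of both, and of a motif of the ETS factors, were searched for in all members with a window. The result is set out by the run on chromosome 9, whereas the plan named only members past 2-fold. RefSeq windows of 250 bases before to 50 after a start site were at hand for 37 of the 65 member genes, and not for Mmp9, Mmp19 and Adamts4. The AP-1 letters TGANTCA, searched on both strands, lay in 8 of the 9 genes of the run with a window (all but Mmp8) and in 3 of the 28 other members, beside 7.81% of 32851 windows of all genes. The letters TATAAA were in 9 of the 9 and 3 of the 28, beside 13.6% of all windows. The ETS letters AGGAAG were in 42.9% of the member windows, beside 35.4% of all windows. In the planned set, 4 members at least 2-fold higher had a window, and 2 of them, Mmp12 and Mmp3, had the AP-1 letters. The 120 bases from 100 before the start to 20 after it are printed for the 5 measured genes of the run and for Mmp10, which lay below the floor, to set genes with and without a signal side by side. They are RefSeq sequence of GRCm38.p6, plus strand, 5′ to 3′, and the capitals mark the AP-1 and TATAAA letters, with TTTATA for TATAAA on the reverse strand.
Mmp13 (chr9:7272414-7272533): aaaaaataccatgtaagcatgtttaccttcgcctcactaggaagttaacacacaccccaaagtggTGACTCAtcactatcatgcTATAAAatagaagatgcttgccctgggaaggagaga
Mmp12 (chr9:7347274-7347393): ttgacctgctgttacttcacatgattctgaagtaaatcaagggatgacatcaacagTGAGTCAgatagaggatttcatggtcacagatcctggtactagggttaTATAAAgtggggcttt
Mmp3 (chr9:7445722-7445841): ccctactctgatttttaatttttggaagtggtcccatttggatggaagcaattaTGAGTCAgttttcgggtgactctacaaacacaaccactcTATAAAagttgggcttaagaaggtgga
Mmp8 (chr9:7558329-7558448): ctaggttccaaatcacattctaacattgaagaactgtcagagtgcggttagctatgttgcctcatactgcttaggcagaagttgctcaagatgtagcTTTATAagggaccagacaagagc
Mmp7 (chr9:7691990-7692109): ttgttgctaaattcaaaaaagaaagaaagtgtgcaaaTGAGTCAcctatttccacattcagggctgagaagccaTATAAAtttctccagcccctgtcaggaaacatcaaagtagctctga
Mmp10 (chr9:7502242-7502361): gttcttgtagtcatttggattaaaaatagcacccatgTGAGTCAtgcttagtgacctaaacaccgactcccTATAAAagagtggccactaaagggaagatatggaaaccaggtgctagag
The AP-1 letters begin 35 bases before the start in Mmp13, 46 in Mmp3, 63 in Mmp7 and 63 in Mmp10, and 44 before the second annotated start of Mmp12, whose first window has none. Mmp8, with the largest ratio, has no such letters in its window. The 4 genes of the run that stayed below both floors all have them, so these letters did not separate the genes with a signal from those without. No AP-1 or TATAAA letters were found in the windows of Adam8, Mmp11, Mmp14, Mmp23, Mmp24 or the TIMP genes. The TATAAA letters begin 16 bases before the start in Mmp13, 7 in Mmp3, 123 and 26 in Mmp7 and 29 in Mmp10. In Mmp8 they begin 3 before the start, and in Mmp12 they begin 4 after its second annotated start. A match is a run of letters and was not tested as a binding site or a TATA box.

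Adam8 stood apart from the rest of the ADAM family. Its product is a membrane protease of neutrophils, macrophages and other leukocytes. The signal was 537 in control and 2795.5 in MSU, 5.21-fold higher from its only probe set, and its ratio exceeded that of Adam17 by 3.43-fold. Of 9 listed ADAMs known as sheddases, which release membrane proteins, 8 were measured, with a median log2 ratio of 0.09. Of the 19 other ADAM genes, many of them genes of the testis and sperm, 4 were measured.

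Adam17, the enzyme that releases TNF, was 747 in control and 1133 in MSU, 1.52-fold higher. Its other probe sets gave 363 and 916, 2.52-fold higher, and 456 and 703, 1.54-fold higher, so all lay above 1 but they differed in size. Adam9 was 1982 and 2816, 1.42-fold higher. Adam10, the close relative of Adam17 that cleaves Notch and cadherins, was 1520 and 1774, a ratio of 1.17 that turned below 1 with scaling on the spike-ins, and its other measured probe sets gave 1.67 and 1.44.

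The other listed sheddases were lower in the MSU pool or nearly level. Adam12, an ADAM of mesenchymal cells, was 1862 and 1449, 1.28-fold lower. Adam19 was 641 and 469, 1.37-fold lower. Adam15, known from endothelium, was 732 and 534, 1.37-fold lower on a probe set that may also bind other transcripts, and the log2 ratios of its 4 probe sets ran from -0.45 to -0.04. Adam33 was 163 and 158, and Adam28, known from lymphocytes, lay below both floors at 33.8 and 28.9. Outside the sheddases, Adam22, a neuronal ADAM without protease activity, had signals of 206 and 116, the lowest ratio of the family at 1.77-fold lower. Adam23 was 91.0 and 82.9, Adam4 was 152 and 212, and Adam1b was 41.8 and 74.8, at least 1.16-fold higher.

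In the ADAMTS family, the aggrecanases and versicanases lay on the higher side. Of 7 such genes 5 were measured, none below 1-fold, with a median log2 ratio of 0.47. Adamts4, or aggrecanase-1, was 709 in control and 1650.5 in MSU, 2.33-fold higher, and its fainter second probe set was 31.0 and 112, at least 1.73-fold higher. Adamts9, a versicanase, was 119 and 232, 1.95-fold higher and just under the limit. Its other probe sets gave 1.94-fold, and 63.5 against 206, at least 3.19-fold higher.

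Adamts1 and Adamts5, neighbours on chromosome 16, had smaller ratios. Adamts1 was 511 and 708, 1.39-fold higher. Adamts5, or aggrecanase-2, was 577 and 739, 1.28-fold higher, and its log2 ratio was -0.10 with scaling on the spike-ins. The ratio of Adamts4 exceeded that of Adamts5 by 1.82-fold. Adamts15 was 841 and 842, with no difference between the pools, and turned below 1 with scaling on the array medians or on the spike-ins. Adamts8 and Adamts20 lay below both floors.

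The remaining ADAMTS genes were level or lower. Adamts12, which cleaves the cartilage protein COMP, was 533 and 435, 1.23-fold lower. Adamts3, a procollagen N-proteinase, was 97.5 in control and below the floor at 51.9 in MSU, at least 1.32-fold lower. Adamts10, which acts on fibrillin microfibrils, was 177 and 196, Adamts16 was 132 and 115, and Adamts6 was 102 and 88.5. Adamts7, Adamts18 and Adamts19 lay below both floors.

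The inhibitors had ratios on both sides of 1. Timp1, the inducible TIMP of fibroblasts and macrophages, was 3445.5 in control and 5674 in MSU, 1.65-fold higher. Timp3, which is held in the matrix and inhibits ADAM17 and the aggrecanases, was 548 and 733, 1.34-fold higher, with the log2 ratios of its 4 probe sets from 0.26 to 0.70, although that of the gene was -0.038 with scaling on the spike-ins. Timp2, which also takes part in the activation of pro-MMP2 by MMP14, was 3768 and 3399, 1.11-fold lower, and its 5 probe sets with a fold lay on both sides of 1, from -0.32 to 0.16. Timp4, a TIMP known from heart, muscle and fat, was 160 in control and below the floor at 65.4 in MSU, at least 2.16-fold lower, and its second probe set was 178 and 34.2, at least 2.40-fold lower. The 2-fold call of Timp4 was lost with a higher floor, the 15000th signal of each array (log2 ratio -0.45), and with the floor as a pseudocount (-0.69).

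Set against the inhibitors, Mmp8, Mmp9, Mmp19, Mmp12, Mmp3 and Mmp13 had ratios above that of Timp1, as did Mmp7. The order of Mmp7 and Timp1 rests on the faint control signal of Mmp7. With the floor as a pseudocount it reversed, at log2 ratios of 0.67 for Mmp7 and 0.71 for Timp1. The other MMP genes with a fold lay below Timp1, whose log2 ratio was 0.72. These were Mmp24 at 0.17, Mmp2 at 0.05, Mmp14 at -0.26 and Mmp23 at -0.56. The ratio of Mmp8 exceeded that of Timp1 by 4.80-fold, that of Mmp9 by 1.87-fold, that of Mmp19 by 1.49-fold, that of Mmp12 by 1.46-fold, that of Mmp3 by 1.26-fold and that of Mmp13 by 1.09-fold. The last of these, 0.13 on the log2 scale, is under 0.22, the median SD among the probe sets for the same gene. That SD is for 1 gene, so a difference between 2 genes above it is not thereby resolved. It also says nothing of the spread between pools. The log2 ratio of Adamts4 lay 0.80 above that of Timp3, that of Adam17 0.18 above it, and that of Adamts5 differed from it by -0.06. For the pair around pro-MMP2, the log2 ratio of Mmp2 was 0.20 above that of Timp2 and that of Mmp14 was -0.11 from it. Apart from that of Adamts4, the differences from Timp3 and Timp2 are also under 0.22 in size. The differences given here between genes do not depend on a scale factor per array, but quantile normalization can change them. With it the log2 ratio of Mmp13 was 0.863 and that of Timp1 was 0.639. All these differences compare mRNA ratios and say nothing of active enzyme.

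Several probe sets of a gene are read from the same RNA and check the probes, not the pools. At least 2 probe sets with a fold were read for 14 members, and in 12 of these all lay on the same side of 1, the exceptions being Mmp2 and Timp2. Within a member, the SD between the log2 ratios of its probe sets was 0.14 at the median and 0.42 at most, for Adam17. Over 4002 genes of the array the same SD was 0.22 at the median and 0.51 at the 90th percentile. Mmp9 and Mmp19 gave nearly the same ratio from each probe set. The 2 probe sets of Adamts9 with a fold were also close, but its remaining probe set, with a bound, gave at least 3.19-fold.

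**Figure D4:**
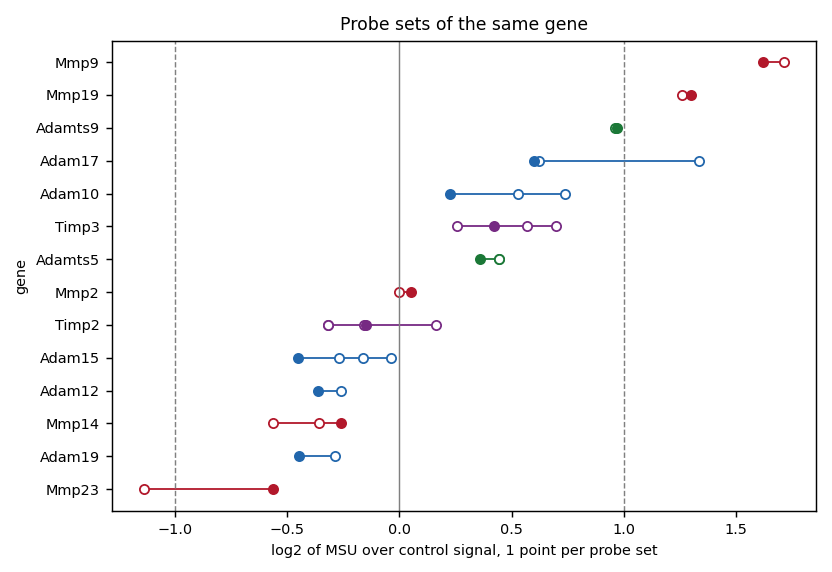
Log2 of MSU over control signal (horizontal axis) of each probe set with a fold, for the 14 member genes with at least 2 such probe sets (vertical axis), with filled points for the probe set that stands for the gene, open points for the others and dashed lines at 2-fold. The probe sets of Mmp9 and Mmp19 all lie above 2-fold, those of Adam17 span from 0.60 to 1.34, and those of Mmp2 and Timp2 fall on both sides of 0.

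Of 24 listed genes that activate or further inhibit metalloproteinases and have a probe set, 18 were measured, and their median log2 ratio was 0.08. By 2-fold or more 4 genes (22.2%) were higher and none lower, beside 3.70% and 4.29% of all measured genes. Lcn2, which binds and stabilises MMP9 and is also a neutrophil protein, was 391 in control and 2359 in MSU, 6.03-fold higher. Serpinb2, an inhibitor of urokinase, was 1318 and 6662, 5.05-fold higher, and Plaur, the urokinase receptor, was 562 and 2691, 4.79-fold higher. Thbs1, a matrix protein that binds MMPs, was 1101 and 5331, 4.84-fold higher, while its relative Thbs2 was 3751 and 1895, 1.98-fold lower. Plau, urokinase itself, was 358 and 379, and Reck, a membrane-anchored MMP inhibitor, was 484 and 412.

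Of 9 listed partners of ADAM10 and ADAM17, 7 were measured and 1 (14.3%) was at least 2-fold higher, beside 3.70% of all measured genes. This partner was Rhbdf2, or iRhom2, which carries ADAM17 to the cell surface in myeloid cells, at 135 and 291, 2.15-fold higher. Its relative Rhbdf1 was 758 and 788. Of 23 genes of proteins shed by these enzymes, 22 were measured, with a median log2 ratio of 0.38. By 2-fold or more 5 (22.7%) were higher and none lower, beside 3.70% and 4.29% of all measured genes. Ereg, an EGF family ligand, was 67.5 and 343, 5.08-fold higher, from a control signal just above the floor. Tnf was below the floor at 37.4 in control and 291 in MSU, at least 4.51-fold higher. Sdc4, a cell surface proteoglycan, was 4.29-fold higher, Il1r2, the decoy receptor of interleukin-1, 3.58-fold higher, and Icam1, an adhesion molecule, 3.03-fold higher.

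The matrix substrates were mostly level. Of 25 such genes 23 were measured, with a median log2 ratio of -0.00, and only Prg4, the lubricin of joint fluid, was past 2-fold, at 1317 and 4187, 3.18-fold higher. This 1 gene is 4.35% of the measured substrates, beside 3.70% higher among all measured genes. Vcan, the versican cleaved by Adamts4 and Adamts9, was 1126 and 1904, 1.69-fold higher. Acan, the aggrecan of cartilage, lay below the floor in both pools. Of the 8 ADAMTS-like genes and other relatives 4 were measured and none was past 2-fold.

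**Figure D5:**
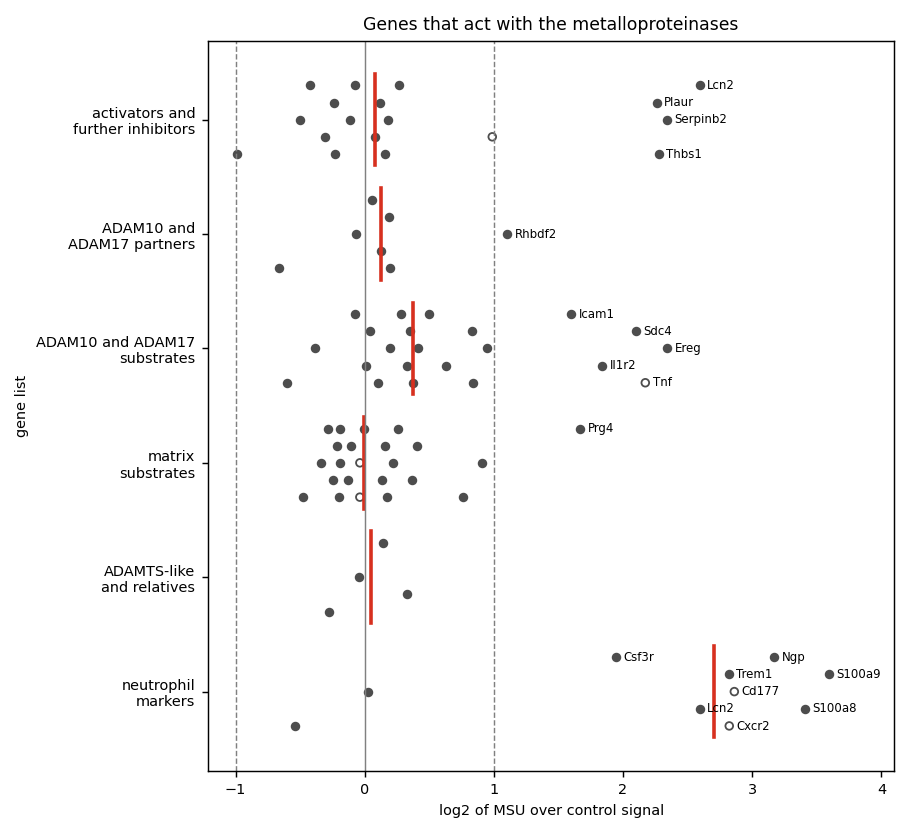
Log2 of MSU over control signal (horizontal axis) of the measured genes of 5 lists that act with the metalloproteinases and of the neutrophil markers (vertical axis), with filled points for folds, open points for bounds, red bars for the median of the folds and dashed lines at 2-fold. Most genes of the first 5 lists lie between the dashed lines, and 8 neutrophil markers lie beyond the upper one.

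Markers of several cell types also differed between the pools. Among all measured genes 3.70% were higher and 4.29% lower by 2-fold or more. Of 12 neutrophil markers with a probe set, 10 were measured, with 8 higher and none lower by 2-fold or more, and the median log2 ratio of 8 folds was 2.70. Their summed signal was 2857 in control and 23505 in MSU, 8.23-fold higher, and most of the MSU sum came from S100a8 (8677) and S100a9 (8737). The granule genes among them were not alike. Ngp was 79.0 and 712, 9.00-fold higher, and Lcn2 was 6.03-fold higher, while Ltf was 234 and 161, Mpo was 74.2 and 75.4, and Camp and Elane lay below both floors. The part of neutrophils in the ratios of Mmp8, Mmp9 and Adam8 was not tested. All 11 macrophage markers were measured, 5 with a fold above 1 and 6 below. Cd163 was 1.94-fold and Mrc1 1.78-fold higher, Cd68 was 1.72-fold and Trem2 5.15-fold lower, and the summed signal was 29056 and 28860. The part of macrophages in the ratio of Mmp12 was not tested. The 11 fibroblast markers had a median log2 ratio of 0.22 and a summed signal of 62464 and 73208.

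Most markers of fat and muscle were lower. Beside the counts below, 4.29% of all measured genes were at least 2-fold lower. Of 6 adipocyte markers, all measured, 5 were at least 2-fold lower, and their summed signal was 12952 in control and 3511 in MSU. Of 10 skeletal muscle markers, 5 were at least 2-fold lower and 2, Acta1 and Ttn, had a fold above 1. The summed signal of the 10 was 43007 and 26517. Of 4 measured smooth muscle markers 3 were at least 2-fold lower. The part of this tissue in the lower signals of Timp4 was not tested. Of the epithelial markers 4 of 6 measured were at least 2-fold lower. Mmp7 was 1.98-fold higher, from a control signal near the floor, and the part of epithelium in its ratio was not tested. Of 5 T cell markers 4 lay below both floors, Cd3e, Cd3d and Cd3g among them, and Cd8a was 98.2 and 97.8. Of 4 B cell markers 3 lay below both floors, and Pax5 was 87.4 in control and below the floor in MSU. Of 4 cartilage markers, Acan and Matn1 lay below both floors, Col2a1 was 254 and 235, and Sox9 was 74.7 in control and below the floor in MSU.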

How the data were processed

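RNA pooled from 3 control and 3 MSU pouches was hybridised to 1 Affymetrix Mouse 430 2.0 array each. The authors deposited 1 intensity for each probe set, a linear signal from Affymetrix software (MAS5, version not given in the sources used here) that they had scaled by 1 factor per array. The mean without the top and bottom 2% of probe sets is 150.001 on both arrays. No log had been taken.

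Of 45101 probe sets, 64 Affymetrix controls, 932 assigned to several genes and 9160 without a gene were left out. Genes were named from the platform annotation, with symbols updated through RefSeq (GRCm38.p6), and where a gene had several probe sets the brightest by mean log2 signal was read. The floor of each array was the signal at the rank of the number of probe sets that the study counted as detected, and takes no account of local background. Folds, bounds and counts at 2-fold were computed in Python 3.11.15 with pandas 2.3.3 and numpy 2.4.6, and the steps were tested on simulated data.

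Named were the members past 2-fold, the MMP and TIMP genes above the floor, the listed sheddases and aggrecanases, the 5 ADAM and 5 ADAMTS genes with the highest signals (a choice for naming, not a comparison of levels), and the largest ratios of further lists. Other genes were named after their values were seen. Members and lists were chosen with earlier results of these data known. With 1 array per pool no p-value was computed, and the number of arrays limits the precision. Alternatives covered scaling, the floor, a pseudocount, the choice of probe set, the fold limit and bounds. The study's change calls were not used here.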

Additional observations from a re-analysis of the deposited data

Results flagged for a closer look

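A probe set shared by Adam6a and Adam6b was left out of the gene values because it names 2 genes, and it was above the floor only in the MSU pool. Its signal was 58.7 in control, below that floor, and 99.1 in MSU. The probe sets of Adam6a alone and Adam6b alone lay below both floors.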

How the results depend on the processing

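No paired analysis was possible because each group had 1 array, and for the same reason no replicate could be left out. Mmp8, Mmp9 and Adam8 stayed at least 2-fold higher under every scaling, floor and probe set choice tried. Not every choice could move them. Mmp8 and Adam8 have 1 probe set each, so the choice of probe set could not change their ratios. Both signals of Adam8 lay far above the floors, so placing the floor elsewhere could not change its ratio either. With scaling on the spike-ins 3 members were higher and 3 lower, beside 1.77% and 15.8% of all measured genes (200 and 1787). The median log2 ratio was then 0.53 for MMP, -0.50 for ADAM, -0.31 for ADAMTS and, reversed in sign, -0.038 for TIMP genes. Under this scaling the log2 ratios of Adam10 (-0.23), Adamts15 (-0.45), Adamts5 (-0.10), Mmp2 (-0.41), Mmp24 (-0.28) and Timp3 (-0.038) turned negative. Scaling on the array medians left 6 members higher, without Mmp3, and turned Mmp2 (-0.02) and Adamts15 (-0.07). Quantile normalization also left 6 and turned Mmp2 (-0.03). With the floor at the 15000th signal 0 members were lower, Timp4 being at -0.45, the ADAM median turned positive at 0.22 and the ADAMTS median was 0.36. With no floor all 65 members have a ratio, and 9 were higher and 8 lower. Beside them 8.92% and 9.48% of all 18193 genes (1623 and 1724) were past 2-fold. The MMP median was then 0.50 and the TIMP median 0.14. With the floor as a pseudocount all 65 members also have a ratio, and 7 were higher and 0 lower. Beside them 1.81% and 1.19% of all 18193 genes (330 and 217) were past 2-fold. The MMP median was then 0.27, the TIMP median 0.13, and the ADAM median turned positive at 0.15. Timp4 was at -0.69 and Adam33 at 0.03. At 3-fold, 3 of the 38 measured members were higher and 0 lower, beside 164 and 80 of the 11155 measured genes. With bounds included the TIMP median was 0.14 and the ADAM median 0.09. The other counts stayed within 1.5 times the reported ones, and the other family medians moved by less than 0.22, the median SD among probe sets. A common floor for both arrays was added after seeing the data. The cause of the brighter spike-ins was not tested. Values of Mmp8, Mmp7, Mmp24, Mmp11, Timp4, Adamts3, Adam1b, Adam23 and Adamts6, among others, rest on a signal near or below a floor in at least 1 pool.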
